A study of Mus musculus with 10 samples.

Results

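The dentate gyrus is the part of the hippocampus whose principal neurons are granule cells. A set of 9 genes whose transcripts are enriched in these cells, Prox1, Glis3, C1ql2, Stxbp6, Calb1, Tdo2, Lct, Dsp and Pdzd2, was followed here among the 43629 genes of the count table. The members were chosen by name as genes of the cell type, with earlier results of these data known, so their counts beside those of all tested genes are a description. All 9 passed the filter on low counts that left 17237 genes for testing. RNA was taken from the whole hippocampus of 5 WT and 5 Dp1Tyb mice, male according to the methods of the study, with 1 library per mouse. The labels give the strain of both groups as C57BL/6J.129P2, the Dp1Tyb genotype as Dp(16Lipi-Zbtb21)1TybEmcf and the age as 18 weeks, where the methods give slightly older mice. Dp1Tyb mice carry a duplicated stretch of chromosome 16 whose genes correspond to those of human chromosome 21, which adds a copy of each to every cell, and WT littermates served as controls. The 9 genes lie on chromosomes 1, 3, 4, 12, 13, 15 and 19, so none of them is in the duplicated region.

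Granule cells receive the main cortical input to the hippocampus and send their axons, the mossy fibres, to pyramidal cells of field CA3 and to mossy cells of the hilus. They are among the few neurons that are also made in the adult, from progenitors at the inner border of the granule cell layer. PROX1 is the homeodomain transcription factor that establishes and maintains their identity. Several of the genes are also used elsewhere: Prox1 in some interneurons, and Calb1 in CA1 pyramidal cells and interneurons. In RNA from whole tissue, fewer cells of a type and less RNA per cell cannot be told apart.

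Total counts per library ranged from 18227684 to 43692270. Genes that mark CA1, CA3 and granule cells were present in every library, as the tissue label implies. Genes of the choroid plexus, the epithelium of the neighbouring ventricle, varied far more than any neuronal list: the summed level of 11 such genes was 434 to 5440 CPM (counts scaled to a common library size) in WT and 39.3 to 3953 CPM in Dp1Tyb. The libraries WT 2, Dp1Tyb 1 and Dp1Tyb 4 stood apart at 434, 39.3 and 47.0 CPM. None of the 11 genes was at 0 in any library, but 6 of them were under 1 CPM in Dp1Tyb 1 and 6 in Dp1Tyb 4. The members are therefore also given without these 3 libraries.

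None of the 9 granule cell genes was called differentially expressed between Dp1Tyb and WT (edgeR quasi-likelihood test, Benjamini-Hochberg adjusted p under 0.05 over all tested genes), where 1.11% of all tested genes were called in either direction, 0.238% as lower and 0.870% as higher. The fitted level was below WT for 7 of the 9 genes, against 51.3% of all tested genes. For 6 of them, Prox1, Glis3, C1ql2, Lct, Dsp and Pdzd2, the unadjusted p was under 0.05 in the lower direction, which was so for 6.40% of all tested genes. In the same 6 genes all 5 Dp1Tyb mice lay below the WT median, as did 12.8% of all tested genes. The median log2 fold change of the 9 genes was −0.19, and that of all tested genes was −0.0041. The groups overlapped for each of the 9 genes, and 1.00% of all tested genes had Dp1Tyb values that were all below the WT values. DESeq2 called 1.02% of the genes it gave an adjusted p as lower, and limma voom called 41 of the 17237 tested genes as lower. Of the 9 granule cell genes, DESeq2 called 1, as lower, and limma voom 0. The largest differences among them were those of C1ql2 and Lct, with adjusted p-values of 0.0906 and 0.0882.

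**Figure D1:**
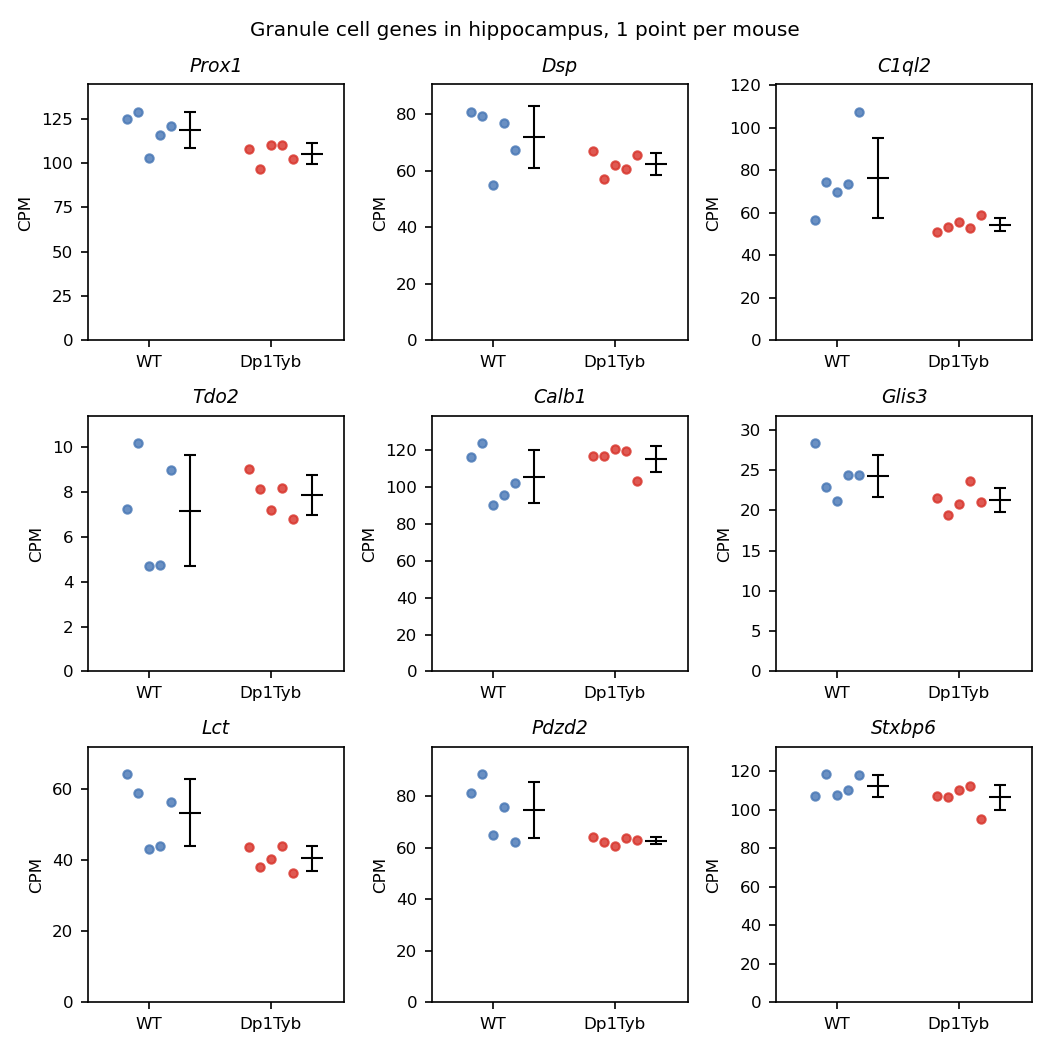
CPM of each granule cell gene (y axis, from 0) in 5 WT and 5 Dp1Tyb mice (x axis), 1 point per mouse, with the mean and SD of each group in black. In C1ql2, 4 of the 5 Dp1Tyb points lie below all WT points, and in Pdzd2 the Dp1Tyb points lie between 60.6 and 64.2 CPM while the WT points range from 62.4 to 88.6 CPM.

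Of the transcription factors, Prox1 had 125, 129, 103, 116 and 121 CPM in WT replicates 1 to 5 and 108, 96.8, 110, 110 and 102 CPM in Dp1Tyb replicates 1 to 5. WT 3 was the only WT library within the Dp1Tyb range. WT mice averaged 119 ± 10.1 CPM and Dp1Tyb mice 105 ± 5.81 CPM (SD, n = 5), which gave a log2 fold change of −0.18 ± 0.057 (SE). Its adjusted p was 0.184 in edgeR, and an exact two-sided permutation test of this single gene gave p = 0.0397, where 0.00794 is the smallest the design allows. Prox1 lies on the minus strand of chromosome 1 (GRCm38 chr1:190118035-190170714). It shares 133 exonic bases with Prox1os on the other strand, which had only 57 to 158 counts per library against 1923 to 4673 for Prox1. Glis3 encodes a Krüppel-like zinc finger protein (chr19:28258851-28680077, minus strand). It had 28.4, 22.9, 21.2, 24.4 and 24.4 CPM in WT and 21.5, 19.4, 20.8, 23.6 and 21.1 CPM in Dp1Tyb. The groups overlapped, with WT 3 and WT 2 inside the Dp1Tyb range, and the log2 fold change was −0.19 ± 0.076 (SE; adjusted p = 0.281 in edgeR).

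C1ql2 and Stxbp6 belong to the synapse and its secretory machinery. C1QL2 is secreted from mossy fibres into the synaptic cleft, where C1q-like proteins bind neurexin 3 and kainate receptors. C1ql2 (chr1:120340582-120343174, plus strand) had 56.6, 74.3, 69.6, 73.6 and 107 CPM in WT and 50.9, 53.4, 55.5, 53.0 and 58.8 CPM in Dp1Tyb. Only Dp1Tyb 5 exceeded the lowest WT mouse, WT 1. The difference of −0.49 ± 0.13 on the log2 scale (SE), or −28.8% in mean CPM, came with an adjusted p of 0.0906 in edgeR and p = 0.0159 in the exact permutation test of this gene. Without WT 5, the highest mouse, the log2 fold change was −0.34 (adjusted p = 0.0807), and without WT 1 it was −0.59 (adjusted p = 0.0275), so that C1ql2 was then called. Over all mice left out in turn, its adjusted p reached 0.205. Stxbp6 encodes amisyn, a syntaxin-binding protein that regulates assembly of the vesicle fusion complex (chr12:44852484-45074709, minus strand). Its values were 107 to 118 CPM in WT and 95.3 to 112 CPM in Dp1Tyb. Dp1Tyb differed from WT by −0.08 on the log2 scale, with a 95% confidence interval from −0.19 to 0.025 (adjusted p = 0.473 in edgeR), so a decrease larger than 0.19 lay outside the interval.

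**Figure D2:**
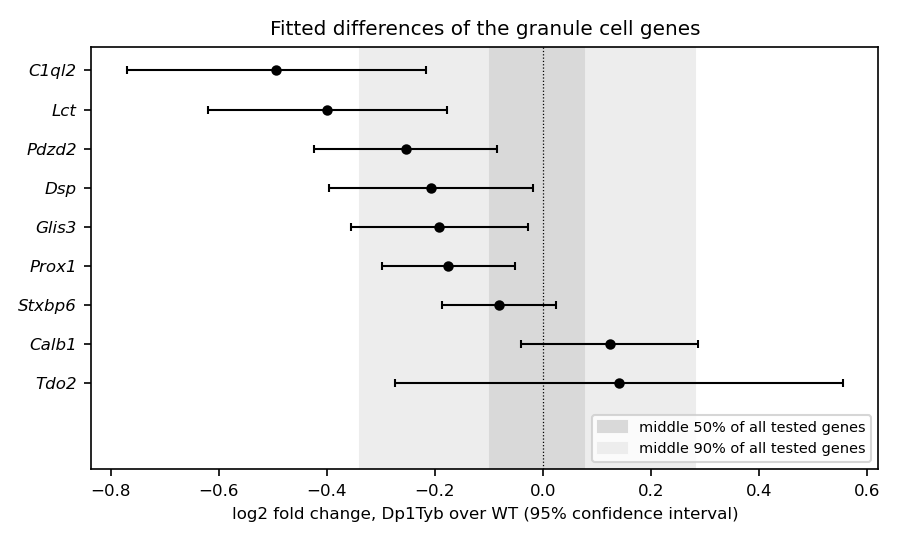
Fitted log2 fold change of Dp1Tyb over WT (x axis) for each granule cell gene (y axis), with 95% confidence intervals from the edgeR fit. The grey bands hold the middle 50% and 90% of all tested genes. C1ql2 at −0.49 and Lct at −0.40 lie outside the wider band, and the points of Calb1 and Tdo2 lie above 0.

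Lct encodes lactase-phlorizin hydrolase, the intestinal enzyme that digests milk sugar, and its transcript also marks granule cells in the mouse. Lct (chr1:128284756-128328318, minus strand) had 64.3, 59.0, 43.1, 43.9 and 56.3 CPM in WT and 43.7, 38.0, 40.3, 44.1 and 36.3 CPM in Dp1Tyb. WT 1, WT 2 and WT 5 were above every Dp1Tyb mouse, and WT 3 and WT 4 were within the Dp1Tyb range. The log2 fold change was −0.40 ± 0.10 (SE), or −24.1% in mean CPM (adjusted p = 0.0882 in edgeR; exact permutation test of this gene, p = 0.0397). Without WT 3 the adjusted p was 0.0493, and Lct was then called. Lct was also called by DESeq2 (log2 fold change −0.40, adjusted p = 0.00847), which called 1.02% of the genes it gave an adjusted p as lower.

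Tdo2 encodes tryptophan 2,3-dioxygenase, which opens the ring of tryptophan at the first step of the kynurenine pathway. It was the lowest member (chr3:81957090-81976202, minus strand), with 7.24, 10.2, 4.71, 4.72 and 8.96 CPM in WT and 9.04, 8.12, 7.19, 8.18 and 6.81 CPM in Dp1Tyb. The WT mice spanned a wider range than the Dp1Tyb mice and enclosed all of them. The log2 fold change of 0.14 had an interval from −0.27 to 0.55 (adjusted p = 0.768 in edgeR), which spans the fitted values of both transcription factors as well as 0. Calb1, which encodes the calcium buffer calbindin, had 116, 124, 90.4, 95.6 and 103 CPM in WT and 117, 117, 121, 120 and 103 CPM in Dp1Tyb (chr4:15881264-15908064, plus strand). Of the Dp1Tyb mice, 4 lay above every WT mouse except WT 2, and the log2 fold change was 0.12 with an interval from −0.041 to 0.29 (adjusted p = 0.485 in edgeR).

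Dsp and Pdzd2 encode a cytoskeletal linker and a scaffold protein. Desmoplakin, the product of Dsp, anchors intermediate filaments at desmosomes in epithelia and heart, and its transcript is a granule cell marker in the hippocampus. Dsp (chr13:38151294-38198577, plus strand) had 80.9, 79.4, 54.9, 77.1 and 67.4 CPM in WT and 67.0, 57.1, 62.2, 60.7 and 65.5 CPM in Dp1Tyb. Its lowest value of all was in WT 3, while the other 4 WT mice were above every Dp1Tyb mouse. Its log2 fold change was −0.21 ± 0.087 (SE; adjusted p = 0.303 in edgeR) and −0.28 without WT 3 (adjusted p = 0.0539). Dsp shares 499 exonic bases with Gm10129 on the other strand, which had 0 to 3 counts per library. Pdzd2, a protein with several PDZ domains (chr15:12359711-12739924, minus strand), had 81.1, 88.6, 65.0, 75.8 and 62.4 CPM in WT and 64.2, 62.2, 60.6, 63.8 and 62.8 CPM in Dp1Tyb. The lowest WT mouse, WT 5, lay inside the narrow Dp1Tyb range. Its log2 fold change was −0.25 ± 0.079 (SE; adjusted p = 0.164 in edgeR; exact permutation test of this gene, p = 0.0397). For the other 5 members the same exact permutation test gave p = 0.0556 for Glis3, 0.127 for Dsp, 0.183 for Stxbp6, 0.206 for Calb1 and 0.405 for Tdo2.

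The genes differed widely in level. Per kilobase of exon, the WT mean was highest for C1ql2 at 38.1 ± 9.39 RPKM (CPM divided by exon length in kilobases), followed by Calb1 at 21.8 ± 2.92, Stxbp6 at 21.2 ± 1.06 and Prox1 at 14.2 ± 1.20 RPKM (SD, n = 5). Lct at 8.32 ± 1.46 RPKM and Dsp at 7.45 ± 1.13 RPKM came next, and Pdzd2 at 4.05 ± 0.596, Glis3 at 2.74 ± 0.300 and Tdo2 at 1.85 ± 0.636 RPKM were lowest. The WT ranges of Calb1 and Stxbp6, of Lct and Dsp, and of Glis3 and Tdo2 overlapped. Both genes of each pair were measured in the same mice, and their differences within a mouse were not tested. C1ql2 lay above Calb1, Stxbp6 above Prox1, Prox1 above Lct, and Pdzd2 below Dsp and above Glis3 without overlap.

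The spread between mice was larger in WT than in Dp1Tyb. The coefficient of variation of CPM was higher in WT for 8 of the 9 genes, Stxbp6 being the exception, against 49.3% of all tested genes. Its median over the 9 genes was 14.7% in WT and 6.25% in Dp1Tyb, where it was 8.65% and 8.71% over all tested genes. In Pdzd2 it was 14.7% in WT and 2.29% in Dp1Tyb. No test was made of this difference in spread, and the 9 genes share their mice and are not independent.

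The 9 genes varied together in part. With each gene centred on its own mean, their average level on the log2(CPM + 0.5) scale was 0.15, 0.24, −0.16, −0.013 and 0.16 in WT 1 to 5 and −0.028, −0.12, −0.074, −0.022 and −0.13 in Dp1Tyb 1 to 5. WT 3 was the lowest of all 10 mice, and the other 4 WT mice were above every Dp1Tyb mouse, WT 4 by less than the spread of either group. All 9 genes were above their own mean in WT 2, which held the highest value of 5 genes, and none was above it in Dp1Tyb 5. In WT 3, which had the fewest counts (18227684) and the highest summed choroid plexus level (5440 CPM), 1 gene was above its mean. WT 2 had the lowest summed choroid plexus level of the WT mice, at 434 CPM. Dp1Tyb 1 and Dp1Tyb 4, lowest in their group at 39.3 and 47.0 CPM, had its highest average levels, −0.028 and −0.022. The order did not hold in every mouse, and WT 5 had 5126 CPM and an average of 0.16. The part of choroid plexus content and depth in these values was not tested. Over the 36 pairs of members, Pearson's r across the 10 mice had a median of 0.332, from −0.483 for C1ql2 and Calb1 to 0.904, and with the group means removed the median was 0.467. These correlations describe mice that share library depth and dissection, and no test was made of them.

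**Figure D3:**
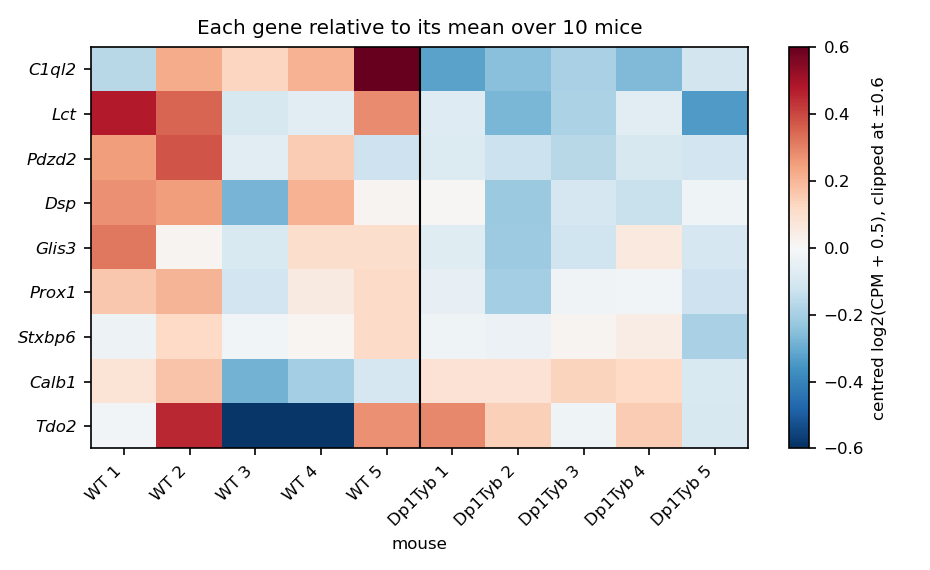
Centred log2(CPM + 0.5) of each granule cell gene (rows) in each mouse (columns), relative to the mean of the gene over 10 mice; red is above and blue below the mean, clipped at 0.6 either way. All 9 genes are above their mean in WT 2 and all 9 below it in Dp1Tyb 5, and WT 3, with a mean of −0.16, has 1 gene above.

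The result was set beside the 3 libraries low in choroid plexus genes. Without them, leaving 4 WT and 3 Dp1Tyb mice, 0 of the 9 genes were called, where 108 of all tested genes were. Of the 9, 5 had an unadjusted p under 0.05, all lower in Dp1Tyb. The share of all tested genes with such a p was counted only with all 10 mice, at 6.40% in the lower direction. Without the 3 libraries, the log2 fold change was −0.46 for C1ql2, −0.45 for Lct, −0.28 for Glis3, −0.21 for Pdzd2, −0.20 for Dsp and −0.19 for Prox1. That of Glis3 was −0.19 with all 10 mice, and those of the others moved less. The adjusted p in edgeR was 0.328 for C1ql2 and 0.183 for Lct, where it was 0.0906 and 0.0882 with all 10 mice.

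The scaling of the libraries bore on the number of calls. The libraries were also scaled to the geometric mean of the counts of 10 pan-neuronal genes. Then 4 of the 9 genes, Prox1, C1ql2, Lct and Pdzd2, were called as lower, as were 2.47% of all tested genes. That scaling moved the median of all tested genes to −0.091 and turned the calls over all genes from 150 higher and 41 lower to 98 higher and 426 lower.

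Promoter sequences are shown for the pair of genes with the largest differences, C1ql2 and Lct, and for Prox1, the gene of the identity factor. Each is the stretch of 250 bases before a RefSeq gene start (GRCm38.p6), 5′ to 3′ on the strand of the gene. Capitals mark the E-box CANNTG, the motif bound by basic helix-loop-helix factors such as NEUROD1; the motif is palindromic, so both strands were searched at once.
C1ql2, chr1:120340332-120340581, plus strand: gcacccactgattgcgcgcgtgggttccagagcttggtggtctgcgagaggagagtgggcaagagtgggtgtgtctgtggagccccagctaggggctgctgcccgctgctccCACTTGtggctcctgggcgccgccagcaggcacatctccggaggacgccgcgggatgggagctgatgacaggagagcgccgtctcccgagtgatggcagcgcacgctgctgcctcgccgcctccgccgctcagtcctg
Lct, chr1:128328319-128328568, minus strand: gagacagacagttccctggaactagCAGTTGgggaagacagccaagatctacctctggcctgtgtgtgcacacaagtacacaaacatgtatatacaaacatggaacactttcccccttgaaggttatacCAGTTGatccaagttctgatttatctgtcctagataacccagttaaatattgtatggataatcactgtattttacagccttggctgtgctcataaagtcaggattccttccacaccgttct
Prox1, chr1:190170828-190171077, minus strand: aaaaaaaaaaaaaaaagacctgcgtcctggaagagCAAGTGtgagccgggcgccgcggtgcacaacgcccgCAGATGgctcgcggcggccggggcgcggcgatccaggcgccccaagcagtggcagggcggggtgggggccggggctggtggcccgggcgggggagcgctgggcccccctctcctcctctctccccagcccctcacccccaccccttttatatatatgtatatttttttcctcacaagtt
The C1ql2 window held 1 E-box, and the Lct window and the Prox1 window shown held 2 each, while the window of the other Prox1 start held 0. The table of promoters held 8 of the 9 genes, Calb1 not among them, in 9 windows because Prox1 had a second start. An E-box was present in 5 of the 9 windows and in 66.2% of all 32851 windows of this length. The GC box GGGCGG, searched on both strands, was present in 5 of the 9 windows, those of Prox1, Dsp, Pdzd2 and Glis3, and in 32.7% of all windows. The Lct window was 42.8% G and C and held no GC box, the C1ql2 window was 68.8% G and C and held none either, and the median of all windows was 52.4%. An E-box and a GC box can share an end base, and they overlapped in 0 of the 9 windows. A match is a description of letters and not of binding.

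Other genes enriched in granule cells had values below WT as well. All 8 further granule cell genes were below WT, with a median log2 fold change of −0.13, as were 51.3% of all tested genes. Of the 8, edgeR and DESeq2 called 0. An unadjusted p under 0.05 in edgeR was found for 2, and for 6.40% of all tested genes in the lower direction. The most abundant of them, Dock10, a guanine nucleotide exchange factor, had 133 ± 13.1 and 128 ± 9.76 CPM (adjusted p = 0.730 in edgeR). Of the 8 genes of newborn and immature granule cells, Eomes was too low to test. All 7 others were below WT, with a median of −0.17. EdgeR called 0 of them, and 3 had an unadjusted p under 0.05. DESeq2 called 1 gene of this list, and it called 1.02% of the genes it gave an adjusted p as lower. Sox11, a transcription factor of immature neurons, had 10.5 to 13.2 CPM in WT and 8.22 to 9.75 CPM in Dp1Tyb, without overlap (log2 fold change −0.34 ± 0.079 SE, adjusted p = 0.0614 in edgeR). Of all tested genes, 1.00% were lower in Dp1Tyb without overlap. Dcx, the microtubule-binding marker of migrating immature neurons, had 27.1 ± 2.32 and 25.7 ± 3.48 CPM (adjusted p = 0.731 in edgeR).

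Markers of the other principal cells lay on both sides of WT. Of 8 mossy cell genes 4 were below WT, of 6 CA3 genes 2, of 5 CA2 genes 1 and of 5 CA1 genes 2, with medians of −0.0056, 0.048, 0.17 and 0.047 and, in each list, 0 called by edgeR or DESeq2 and 0 with an unadjusted p under 0.05. The genes with the smallest p in these lists were Ajap1 in mossy cells (log2 fold change −0.11, adjusted p = 0.562), Grik4 in CA3 (0.12, adjusted p = 0.376), Pcp4 in CA2 (0.43, adjusted p = 0.365) and Fibcd1 in CA1 (0.085, adjusted p = 0.471). Pcp4 lies in the duplicated region and so has an extra copy in Dp1Tyb. The most abundant were Ociad2, Grik4, Rgs14 and Mpped1, with log2 fold changes of 0.030, 0.12, 0.12 and −0.0097, and none of these was called.

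Most of the interneuron and pan-neuronal genes had higher values in Dp1Tyb. Of 8 interneuron genes 6 were above WT and 5 had an unadjusted p under 0.05, where 7.97% of all tested genes had one in that direction. Vip, the neuropeptide of one interneuron class, rose from 14.3 ± 1.45 to 19.2 ± 1.70 CPM (SD, n = 5; log2 fold change 0.43 ± 0.080 SE, adjusted p = 0.0209 in edgeR), and Gad2, which makes the transmitter GABA, rose as well, with 130 to 159 CPM in WT and 164 to 216 CPM in Dp1Tyb (0.34 ± 0.074 SE, adjusted p = 0.0410). Gad1, the most abundant, had 321 ± 20.4 and 372 ± 21.2 CPM (adjusted p = 0.0765). Vip, Gad2, Gad1 and Lhx6 did not overlap between the groups, and 2.63% of all tested genes were so in the higher direction. The 2 interneuron genes below WT were those of other classes, Pvalb, with 26.8 ± 5.36 and 24.0 ± 1.80 CPM (a log2 difference of −0.16 ± 0.11 SE with adjusted p = 0.525), and Sst, with 132 ± 13.5 and 128 ± 9.52 CPM (−0.049 ± 0.069 SE, adjusted p = 0.774). No interneuron gene was called without WT 4, WT 5, Dp1Tyb 2 or Dp1Tyb 4. DESeq2 called 4 of the 8, and edgeR with the replicate number as a block called 3. Of all tested genes these fits called 506 and 315. Of 10 pan-neuronal genes 9 were above WT with a median of 0.11, and Stmn2, a regulator of neuronal microtubules, was called (0.21 ± 0.043 SE, adjusted p = 0.0307), but not without WT 3, WT 4, WT 5, Dp1Tyb 1, Dp1Tyb 2 or Dp1Tyb 3. Of the 10, DESeq2 called 2 and edgeR with the replicate block 1. The most abundant of the 10, Snap25, had 1835 ± 125 and 2015 ± 93.3 CPM (adjusted p = 0.286 in edgeR). With libraries scaled to the pan-neuronal genes, 1 interneuron gene was called. The pan-neuronal genes set that scale, which takes out their average difference, so their count of 0 called is no check on them. The part of interneuron and total neuronal RNA in the values of the granule cell genes was not tested.

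**Figure D4:**
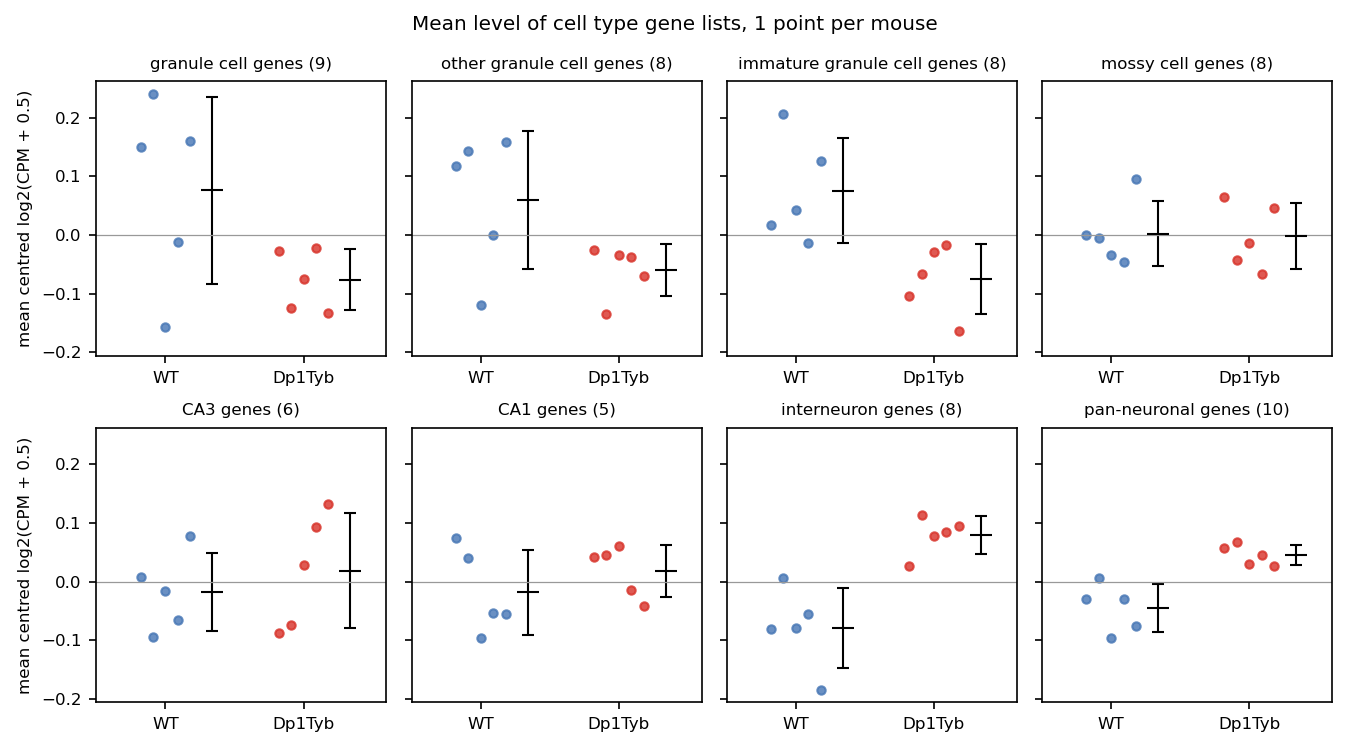
Mean centred log2(CPM + 0.5) of the genes of 8 lists (y axis; the number of genes is in each title) in 5 WT and 5 Dp1Tyb mice (x axis), 1 point per mouse with the group mean and SD in black. The granule cell lists have group means below 0 in Dp1Tyb and above 0 in WT, and the interneuron and pan-neuronal lists the reverse. The groups overlap in the mossy cell, CA3 and CA1 lists. They also overlap in the granule cell and other granule cell lists, where WT 3 lies below or among the Dp1Tyb points. The interneuron and pan-neuronal points do not overlap, and those of the immature granule cell list are barely apart.

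Tissue next to the hippocampus and blood were checked in the same way. All 11 choroid plexus genes were below WT with a median log2 fold change of −0.96, 0 called and 0 with an unadjusted p under 0.05 in edgeR. Among these choroid plexus genes, Clic6 lies in the duplicated region and so has an extra copy in Dp1Tyb. It was the nearest of them to WT, at −0.40 (adjusted p = 0.865 in edgeR). Ttr, the thyroid hormone carrier of this epithelium, had 3235 ± 1810 and 1634 ± 1716 CPM (adjusted p = 0.713 in edgeR), and Kl, the klotho gene, had the smallest p (−0.90, adjusted p = 0.509). Of 7 meningeal genes 5 were below WT, with Foxc1 at −0.29 (adjusted p = 0.328) and the most abundant, Dcn, at 0.31 (adjusted p = 0.523). Of 6 thalamic genes 4 were below WT, with Lef1 at −0.32 (adjusted p = 0.161) without overlap between the groups and Prkcd at 0.12 (adjusted p = 0.410). All 5 red blood cell genes were below WT, with Hbb-bs at −0.43 (adjusted p = 0.290). None of the genes of these 4 lists was called in edgeR, where 1 meningeal, 1 thalamic and 1 blood gene had an unadjusted p under 0.05. Of all tested genes, 51.3% were below WT, 6.40% had such a p in the lower direction, and 1.00% were lower without overlap. The part of these lists in the values of the granule cell genes was not tested.

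Genes that work with the members were followed next, and edgeR called 0 of them. Among the 8 tested partners and relatives of C1QL2 at the synapse, 4 were below WT, 1 had an unadjusted p under 0.05 and DESeq2 called 1. Nrxn3, the neurexin of this complex, had 180 to 213 CPM in WT and 214 to 235 CPM in Dp1Tyb, without overlap (log2 fold change 0.19 ± 0.052 SE, adjusted p = 0.103 in edgeR). Grik5, the most abundant kainate receptor subunit of the list, had 240 ± 25.7 and 229 ± 16.4 CPM (adjusted p = 0.662). Of 13 genes of tryptophan breakdown, the pathway of TDO2, 7 could be tested. Kyat1, a kynurenine aminotransferase, had the smallest p and the highest level (0.20 ± 0.061 SE, adjusted p = 0.149 in edgeR), with groups that did not overlap. Of all tested genes, 2.63% were higher without overlap, and 7.97% had an unadjusted p under 0.05 in that direction. Of 10 tested desmosomal genes 6 were below WT, with Perp at −0.49 (adjusted p = 0.472) and Pkp4, the most abundant, at 0.027 (adjusted p = 0.786). Of 9 tested relatives of the members, Lctl, a lactase-like gene, had the smallest p (1.06 ± 0.38 SE, adjusted p = 0.231) at only 0.281 ± 0.171 and 0.561 ± 0.0955 CPM, and Stxbp5, a tomosyn, was the most abundant (0.014, adjusted p = 0.910).

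The genes whose pattern across the 10 mice was most like the mean level of the 9 granule cell genes, among 15092 other genes with a mean of at least 1 CPM, were Sdcbp2 (Pearson's r = 0.96, Spearman's rho = 0.964), Plekha2 (0.942 and 0.915), ENSMUSG00000102171 (0.94 and 0.964), Col7a1 (0.936 and 0.952) and Snrnp40 (0.932 and 0.83). Plekha2 is itself among the further granule cell genes. Without WT 2 and WT 5, the mice farthest from the median, r was 0.964, 0.922, 0.939, 0.927 and 0.849. The opposite pattern was closest in Tbl1x (−0.933 and −0.818), Rgs12 (−0.921 and −0.794), Tmem163 (−0.917 and −0.794), Ccdc158 (−0.914 and −0.879) and Acp2 (−0.906 and −0.855). These are the extremes of a ranking of all these genes over 10 mice and are given as a description with no test. Of the 10, none was called between the genotypes.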

How the data were processed

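The authors sequenced RNA from the whole hippocampus of 10 mice, 5 per genotype. Libraries were stranded poly(A). Per the labels and the methods of the study, adapters were trimmed with Trim Galore, reads were mapped to GRCm38 with TopHat2 2.0.12, reads with several alignments were discarded, and HTSeq counted reads per gene; the annotation release and strand setting were not given in the sources used here, so genes overlapping another gene are uncertain. The deposited counts used here are whole reads, not normalized. The normalized table and the authors' own DESeq2 1.6.3 comparison were not used.

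Counts were tested with edgeR 4.0.16 (R 4.3.3): quasi-likelihood F-test, TMM, filterByExpr, no covariates, Benjamini-Hochberg adjustment over 17237 genes. CPM used TMM factors; log2 values had a pseudocount of 0.5; 95% intervals used the standard error implied by the test. RPKM divided by exon length in GENCODE M21. Scripts were tested on simulated data. Alternatives were other normalizations, filters and tools (DESeq2 1.42.0 and limma voom 3.58.1), a replicate block and leaving out each mouse. Named genes were all members, and of each other list the called genes, or else the gene with the smallest p, and the most abundant gene; Gad1, Lhx6, Pvalb, Sst and Snap25 were named in addition after their values were seen. Some genes that this rule names are not reported here. Members and lists were chosen with earlier results of these data known. P-values measure the spread between these libraries, 1 per mouse. Precision rests on 18227684 to 43692270 counts per library.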

Additional observations from a re-analysis of the deposited data

Results flagged for a closer look

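Calb1 in Dp1Tyb replicate 5 was the only value that stood apart from its group, at 103 CPM where the nearest of the other 4 Dp1Tyb mice had 117 CPM. Its gap to that mouse was 0.768 of the whole range of the group. Of 18 groups of 5 mice checked, 1 stood apart, and chance alone gives 0.9.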

How the results depend on the processing

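None of the 9 granule cell genes was called in the fit as reported, nor with median-of-ratios or upper quartile normalization, limma voom, a mean of at least 1 CPM, or without the 3 libraries low in choroid plexus genes. Scaled to pan-neuronal genes 4 were called, and 1 was called with DESeq2 (Lct; all genes with any count entered, so tool and filter both differ), with no filter on low counts (C1ql2) and with the choroid plexus level as a covariate (Lct). Leaving out each mouse gave 0 to 1. The alternatives on choroid plexus genes were chosen after seeing the data. The covariate turned the log2 fold change of Tdo2 from 0.14 to −0.018; the cause was not tested. The number of granule cell genes with an unadjusted p under 0.05 was 6 as reported and 4 to 7 over the alternatives. The number of all tested genes called was 191 as reported, 524 scaled to pan-neuronal genes, 506 with DESeq2, 315 with the replicate block, 108 without the 3 libraries and 105 to 218 when each mouse was left out.

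With the replicate number as a block, 1 granule cell gene was called, C1ql2 (log2 fold change −0.46, adjusted p = 0.0199 in edgeR). The labels do not say whether mice with the same number share a litter or a batch. The correlations of the deviations of such mice from the group means were 0.31, −0.015, 0.32, −0.07 and 0.419. Of 5 WT mice, 2 correlated best with the Dp1Tyb mouse of their own number. The members had at least 88 counts in each library.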
